A study of Homo sapiens with 12 samples.

Results

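The genes described here are transcriptional regulators of the cell cycle. They are the activators MYBL1, MYBL2 and FOXM1, the MuvB core subunits LIN9, LIN37, LIN52 and LIN54, and the pocket proteins RB1, RBL1 and RBL2. They were chosen by symbol, 10 genes of the 23375 listed in at least 1 of the authors' 4 deposited comparison tables, and all 10 were listed in all 4. SUM159, an established cell line from a primary triple-negative breast tumour, was profiled by RNA-seq in 12 libraries, 3 in each of 4 groups. The groups were shE4F1 cells given 140 nM gemcitabine for 24 h, untreated shE4F1 cells, shCTRL cells given the same drug dose, and untreated shCTRL cells; shE4F1 is a hairpin against the transcription factor gene E4F1 and shCTRL a scrambled hairpin. Gemcitabine is a deoxycytidine analogue that stops DNA synthesis. How many hairpins were used, and whether the transfected cells were a pool or 1 clone, is not given in the sources used here. Separate cultures are not stated either, so every p-value here may measure technical spread.

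In resting and early G1 cells the pocket proteins p107 (RBL1) and p130 (RBL2) join an E2F, its DP partner and the MuvB core into the DREAM complex, which represses cell cycle genes. When cells enter the cycle the pocket proteins leave, and the core binds B-MYB (MYBL2) and then FOXM1 to activate the genes of G2 and mitosis. LIN54 is the subunit that touches DNA, at the cell cycle homology region (CHR) of late cell cycle promoters, while E2F sites mark the promoters of early, G1/S genes. MYBL2 and RBL1 are themselves well-known E2F-controlled genes.

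The promoter stretches below carry the motifs of this system and are shown because they let a reader see which words stand near the starts of the members. They come from RefSeq windows on GRCh38.p14, which run from 250 bases before to 50 after a transcript start; 8 of the 10 members had such windows, 13 in all. Each is given 5′ to 3′ on the gene's own strand, with motif matches in capitals.
MYBL2, chr20:43667064-43667093, plus strand, E2F-type word GGCGGGA: ccgacgcgcttGGCGGGAgatagaaaagtg
RBL1, chr20:37095998-37096037, minus strand, E2F words: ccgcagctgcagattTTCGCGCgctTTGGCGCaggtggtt
LIN52, chr14:74084918-74084947, plus strand, an E2F word that overlaps the E2F-type word: tatggaacctcgttTTCCCGCCgacggttg
LIN54, chr4:83010899-83010928, minus strand, CHR word TTTGAA and E2F-type word: gtgcgTTTGAAggttggcggggcGGCGGGA
LIN37, chr19:35748629-35748658, plus strand, CHR word and E2F-type word: atcTTTGAActgtccccgccttcTCCCGCC
LIN9, chr1:226309150-226309179, minus strand, CHR word across the start: cggcgggcagccTTTGAAaaagcggcgcgg
RBL2, chr16:53434481-53434510, plus strand, CHR word after the start: cgggcgcttcgccgTTTGAAtggctgcggg
The words were searched on both strands. CHR was TTTGAA, and the E2F words were TTCCCGC and TTGGCGC as well as TTCGCGC and its relative TTGCCGC; the E2F-type word GGCGGGA was added after the MYBL2 window had been read. Over all 35116 windows of that length, TTTGAA lay in 15.2%, an E2F word in 12.97% and GGCGGGA in 15.4%. Among the 13 member windows TTTGAA lay in 5, an E2F word in 3 and GGCGGGA in 7. Those 7 include the MYBL2 window that the word was taken from, so the count is a description only. The 2 LIN54 windows overlap almost fully and hold the same sites, so TTTGAA and GGCGGGA belong to 4 and 6 genes. LIN9 also holds an E2F word and GGCGGGA outside the stretch printed. The single RB1 window starts inside the gene, far from its annotated 5′ end, and held neither a CHR nor an E2F word. Transcript starts of the printed LIN9, LIN54, LIN37, RBL2, LIN52 and MYBL2 stretches also lie inside the annotated genes, though nearer the 5′ end. The CHR words of LIN9, LIN37 and RBL2 were not in every window of those genes. A word in a window is a match of letters and not a bound site.

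**Figure D1:**
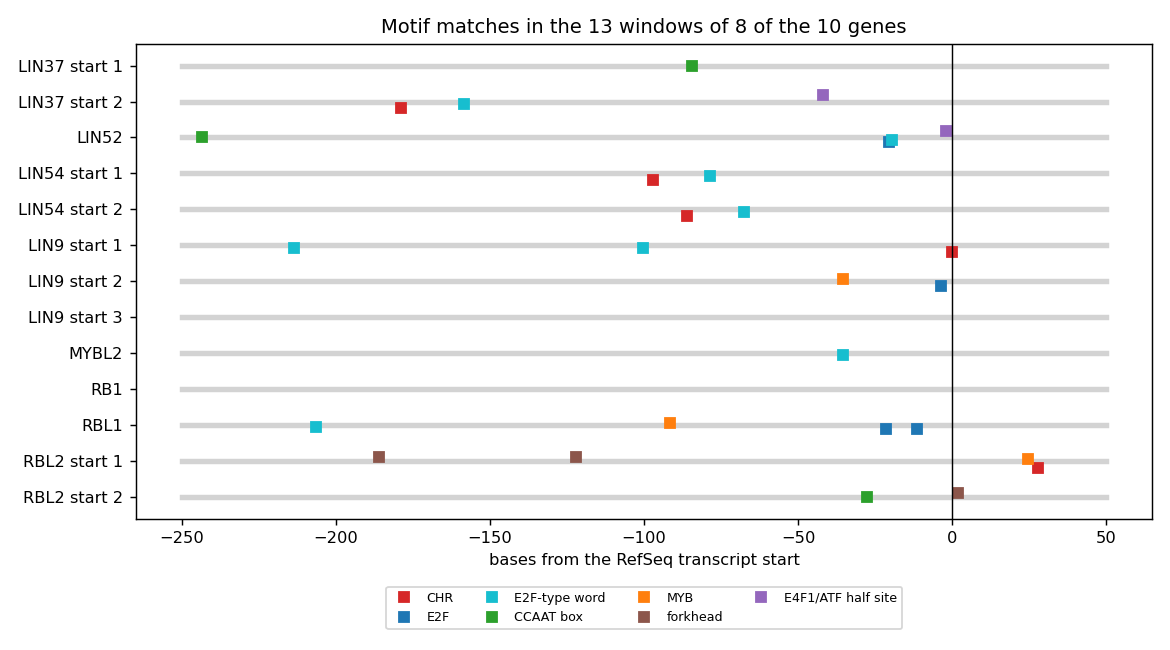
Positions of motif matches (squares, coloured by motif) in the 13 RefSeq windows of 8 of the 10 genes; the x axis is the distance in bases from the transcript start, and each grey bar is 1 window. CHR words lie in windows of LIN9, LIN37, LIN54 and RBL2, and E2F words in those of LIN9, LIN52 and RBL1.

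Values are log2 fold changes ± SE of the first-named group over the second, from the authors' DESeq2; a gene is said to have risen or fallen only where the adjusted p was under 0.05. Per-library values could not be assigned to groups and were not used, so the level in each group is given relative to untreated shCTRL cells, and depth per library is unknown here. In the authors' deposited table of the untreated knockdown, members averaged between 74.4 (LIN37) and 4289 (RBL2) normalized counts, with SEs of 0.14 to 0.27 against a median SE of 0.24 over all genes. Per kilobase of merged exons, those means placed RBL2 (586), RB1 (562), MYBL2 (459) and FOXM1 (450) highest, LIN54, LIN52, MYBL1, RBL1 and LIN9 between 173 and 118, and LIN37 lowest at 26.4. E4F1 itself, the hairpin's target, stood at 0.503 times its shCTRL level in untreated cells (adjusted p = 0.000778) and at 0.532 times under gemcitabine (adjusted p = 1.47e-07) in the authors' deposited tables. Of the fixed markers, the mesenchymal genes VIM, CD44 and FN1 had means of 11117 to 175896 in the authors' deposited table of the untreated knockdown. Luminal keratins were present too, KRT8 at 2674 and KRT18 at 2330, as were basal KRT5 at 466 and the receptor ERBB2 at 2833. By contrast CDH1 was at 5.34, KRT14 at 2.54 and ESR1 at 9.21, and EPCAM and PGR were not listed. For other cell types, the blood marker PTPRC had a mean of 42.6 and the endothelial marker PECAM1 one of 183, while CD68 and CDH5 were not listed. PTPRC fell by 2.21 (adjusted p = 4.96e-07) and PECAM1 rose by 1.40 (adjusted p = 7.85e-06) with the untreated knockdown in the authors' deposited values, and their part in the results below was not tested. Less RNA per cell and fewer cells in a given cycle phase cannot be told apart in these bulk libraries.

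E4F1 knockdown in untreated cells lowered B-MYB, FOXM1 and the core subunit LIN9, and moved the other members by at most 0.41 (log2) in size. By the authors' deposited values 5 of the 10 members fell (MYBL2, LIN9, FOXM1, LIN54 and RBL2), 1 rose (RB1) and 4 did not pass. Over all 19472 genes tested 36.7% were called, 19.3% lower and 17.5% higher, and 48.7% were called among genes whose mean was at least 50, as it was for all 10 members. The count of members called is therefore close to the share of expressed genes called, and the members are described below for their sizes and directions. The median member was at -0.35, against -0.0053 over all genes tested.

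MYBL2 (ENSG00000101057, chromosome 20, 43667019 to 43716496, plus strand, GRCh38) encodes B-MYB, the partner that turns MuvB into an activator. Its level fell to 0.328 times in untreated shE4F1 cells, a log2 change of -1.61 ± 0.15 (adjusted p = 6.78e-24) in the authors' deposited table. Under gemcitabine it stood at 0.486 times in shE4F1 cells relative to shCTRL cells, -1.04 ± 0.11 on the log2 scale (adjusted p = 4.32e-20), by the authors' deposited values for that comparison. The drug itself moved it the other way. In shCTRL cells MYBL2 rose 2.11-fold with gemcitabine, by 1.08 ± 0.15 (adjusted p = 2.62e-11), in the authors' deposited table. Relative to untreated shCTRL cells the 4 groups thus ran at 0.04 ± 0.16 in shE4F1 cells with gemcitabine, -1.61 ± 0.15 in untreated shE4F1 cells and 1.08 ± 0.15 in shCTRL cells with gemcitabine, all from the authors' deposited tables. The order was shCTRL with gemcitabine highest, then shE4F1 with gemcitabine and untreated shCTRL, whose difference did not pass (adjusted p = 0.903 in the authors' deposited table; 95% interval -0.29 to 0.36), and untreated shE4F1 lowest.

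FOXM1 (ENSG00000111206, chromosome 12, 2857681 to 2877155, minus strand) encodes the forkhead factor that joins B-MYB and MuvB at G2/M promoters. It fell to 0.533 times in untreated shE4F1 cells, by 0.91 ± 0.17 (adjusted p = 1.52e-06) in the authors' deposited table. With gemcitabine in both arms the change was -0.35 ± 0.11 (adjusted p = 0.00634), or 0.784 times that of shCTRL cells, by the authors' deposited values. FOXM1 stood at 0.08 ± 0.18 for gemcitabine in shCTRL cells (adjusted p = 0.791; 95% interval -0.28 to 0.44) in the authors' deposited table. Knockdown with drug against untreated shCTRL cells gave -0.28 ± 0.18 (adjusted p = 0.237) in the authors' deposited table. FOXM1 shares exonic sequence with ITFG2 on the opposite strand, and the strand setting of the counting is not given in the sources used here.

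MYBL1 (ENSG00000185697, chromosome 8, 66562175 to 66614247, minus strand) encodes A-MYB, a paralog best known from male germ cells. In shCTRL cells it had the largest drug response of the 10, and it had no called response to the knockdown. Gemcitabine raised it 3.24-fold in shCTRL cells, by 1.70 ± 0.15 (adjusted p = 3.46e-27), in the authors' deposited table. With knockdown and drug together it rose by 1.84 ± 0.16 (adjusted p = 1.34e-27) over untreated shCTRL cells, by the authors' deposited values. The knockdown values were 0.22 ± 0.15 untreated (adjusted p = 0.247; 95% interval -0.07 to 0.51) and 0.15 ± 0.12 under gemcitabine (adjusted p = 0.327; -0.08 to 0.38) in the authors' deposited tables. The drug groups of MYBL1 therefore stand together above the untreated groups, whichever hairpin the cells carried, while those of MYBL2 are split by the hairpin.

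**Figure D2:**
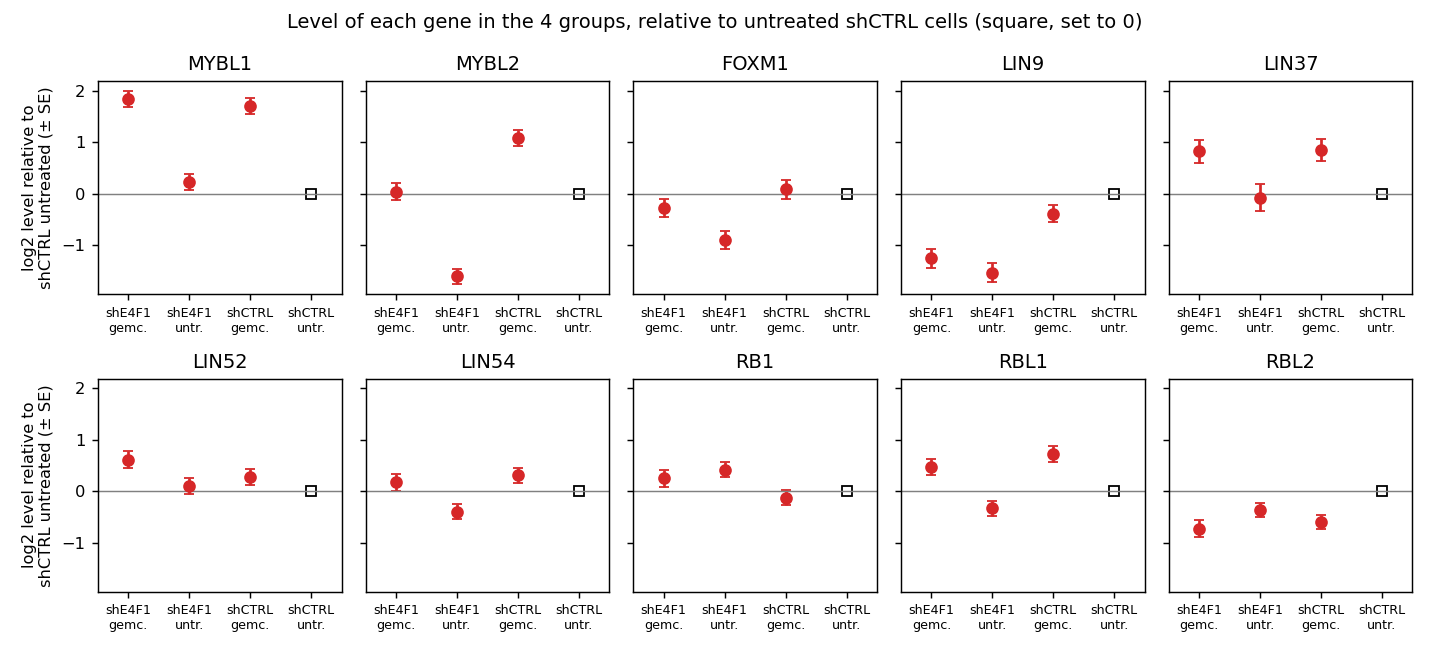
Log2 level of each of the 10 genes in the 4 groups relative to untreated shCTRL cells (open square, set to 0); points are deposited log2 fold changes and bars their SE. MYBL1 and LIN37 are high in both gemcitabine groups, MYBL2 is lowest in untreated shE4F1 cells at -1.61, and LIN9 is low in both shE4F1 groups.

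Among the core subunits the knockdown acted on LIN9 most. LIN9 (ENSG00000183814, chromosome 1, 226231149 to 226309869, minus strand) is the scaffold subunit that contacts B-MYB. It fell to 0.345 times in untreated shE4F1 cells, by 1.54 ± 0.18 (adjusted p = 2.82e-15), in the authors' deposited table. Under gemcitabine it fell by 0.86 ± 0.13 (adjusted p = 3.31e-10) in the authors' deposited table, to 0.551 times the shCTRL level. The drug alone left it at -0.39 ± 0.17 in shCTRL cells (adjusted p = 0.0730) in the authors' deposited table. Against untreated shCTRL cells, shE4F1 cells with drug were at -1.26 ± 0.18 (adjusted p = 4.93e-11), by the authors' deposited values, so by these values both shE4F1 groups lay below both shCTRL groups.

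LIN37 (ENSG00000267796, chromosome 19, 35748361 to 35754519, plus strand), a subunit needed for DREAM to repress, followed the drug and not the hairpin. It rose by 0.84 ± 0.21 with gemcitabine in shCTRL cells (adjusted p = 0.000435) in the authors' deposited table. In shE4F1 cells with drug it was 0.82 ± 0.23 above untreated shCTRL cells (adjusted p = 0.00211) in the authors' deposited table. Its knockdown values were -0.08 ± 0.27 untreated (adjusted p = 0.856) and -0.01 ± 0.18 under gemcitabine (adjusted p = 0.966) in the authors' deposited tables. With the lowest mean of the 10, its 95% intervals were wide, -0.60 to 0.44 untreated and -0.37 to 0.34 with drug. LIN37 shares exonic sequence with a gene on its own strand and with an antisense gene in the annotation. Its counts may therefore include reads of theirs or lack reads from the shared sequence, which was not tested.

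LIN52 (ENSG00000205659, chromosome 14, 74084796 to 74201235, plus strand) is the small subunit whose phosphorylation by DYRK1A lets MuvB bind p107 and p130. It rose under gemcitabine with the knockdown, by 0.36 ± 0.12 (adjusted p = 0.00574), in the authors' deposited table. Without drug the knockdown value was 0.10 ± 0.16 (adjusted p = 0.680), and the drug value in shCTRL cells 0.27 ± 0.15 (adjusted p = 0.186), in the authors' deposited tables. With both changes it rose by 0.62 ± 0.16 over untreated shCTRL cells (adjusted p = 0.000744) in the authors' deposited table. The DNA-binding subunit gene LIN54 (ENSG00000189308, chromosome 4, 82909973 to 83012926, minus strand) fell by 0.39 ± 0.15 in untreated shE4F1 cells (adjusted p = 0.0258) in the authors' deposited table. That call ended when fold changes were centred on the median of expressed genes (adjusted p = 0.0565). The same centring brought the LIN54 drug value in shCTRL cells under the threshold, at 0.37 (adjusted p = 0.0466). LIN54 values under the other comparisons were small, at -0.12 ± 0.11 for the knockdown with drug, 0.31 ± 0.15 for the drug in shCTRL cells and 0.17 ± 0.16 for both changes, and none passed in the authors' deposited tables (adjusted p = 0.408, 0.110 and 0.461). The core subunits hence did not move as a unit: LIN9 went down with the hairpin, LIN37 up with the drug, and LIN52 and LIN54 by less than 0.7 (log2) in each table.

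The pocket protein genes moved in different directions too. RB1 (ENSG00000139687, chromosome 13, 48303726 to 48599436, plus strand), the retinoblastoma tumour suppressor, restrains E2F1 to E2F3 outside the DREAM complex. It rose with the knockdown by 0.41 ± 0.15 in untreated cells (adjusted p = 0.0148) and by 0.41 ± 0.11 under gemcitabine (adjusted p = 0.000719) in the authors' deposited tables, or 1.33-fold and 1.32-fold. The drug value in shCTRL cells was -0.13 ± 0.15 (adjusted p = 0.589) and that of both changes 0.25 ± 0.16 (adjusted p = 0.250) in the authors' deposited tables.

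RBL1 (ENSG00000080839, chromosome 20, 36996349 to 37095995, minus strand), p107, responded to the drug. It rose by 0.73 ± 0.16 with gemcitabine in shCTRL cells (adjusted p = 3.31e-05) and by 0.47 ± 0.16 with both changes (adjusted p = 0.0138) in the authors' deposited tables. The knockdown values lay below 0 and just outside the threshold, -0.33 ± 0.16 untreated (adjusted p = 0.0774) and -0.25 ± 0.11 with drug (adjusted p = 0.0500239), in the authors' deposited tables. The second of these passed once p-values were adjusted over the genes whose mean was at least 50 (adjusted p = 0.0346).

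RBL2 (ENSG00000103479, chromosome 16, 53433977 to 53491649, plus strand), p130, is the pocket protein that dominates in resting cells. It was the only member that fell with gemcitabine in shCTRL cells, by 0.60 ± 0.14 (adjusted p = 0.000211) in the authors' deposited table. The knockdown lowered it by 0.37 ± 0.14 without drug (adjusted p = 0.0312) in the authors' deposited table, a call lost on centring (adjusted p = 0.0689). With drug the knockdown value was -0.11 ± 0.12 (adjusted p = 0.527) in the authors' deposited table. Both changes together gave -0.73 ± 0.16 (adjusted p = 7.59e-05) in the authors' deposited table, so untreated shCTRL cells had the highest RBL2 level of the 4 groups. RBL2 shares exonic sequence with AKTIP on the opposite strand and RBL1 with an unlisted antisense gene.

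**Figure D3:**
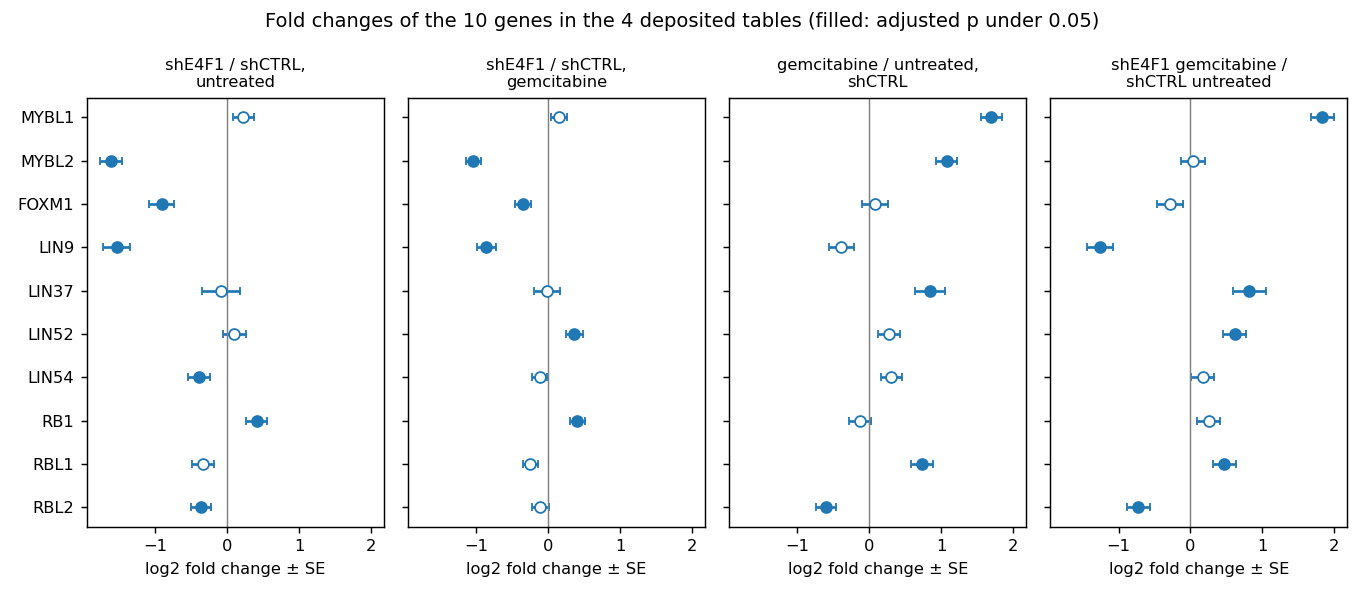
Log2 fold change ± SE of the 10 genes (rows) in the 4 deposited tables (panels); filled points had an adjusted p under 0.05. MYBL2, FOXM1 and LIN9 lie left of 0 in both knockdown panels, and MYBL1, MYBL2, LIN37 and RBL1 are filled right of 0 in the panel of gemcitabine in shCTRL cells.

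With gemcitabine in both arms, 3 members fell with the knockdown (MYBL2, FOXM1 and LIN9), 2 rose (LIN52 and RB1) and 5 did not pass in the authors' deposited table, where 41.0% of 22433 genes were called, 20.8% lower and 20.3% higher, and 59.3% of those with a mean of at least 50. The median member stood at -0.11, against 0.0014 over all genes. For gemcitabine in shCTRL cells 4 members rose (MYBL1, MYBL2, LIN37 and RBL1), 1 fell (RBL2) and 5 did not pass in the authors' deposited table, beside 28.0% of 20002 genes called, 14.5% higher and 13.5% lower, and 36.0% of those with a mean of at least 50. Their median was 0.29, against -0.019 over all genes. In the table of both changes 4 rose (MYBL1, LIN37, LIN52 and RBL1) and 2 fell (LIN9 and RBL2), with 32.2% of 19724 genes called in the authors' deposited table, 15.8% higher and 16.3% lower, and 42.2% of those with a mean of at least 50. These last 3 tables share libraries with each other or with the untreated knockdown, so their values are set side by side and not counted as separate support. The 2 knockdown tables share no library, and 3 members (MYBL2, FOXM1 and LIN9) fell in both. Among genes with a mean of at least 50, 26.6% were called lower untreated and 29.8% with drug. The share of such genes called lower in both was not counted, so the overlap of the 3 members is a description only.

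No deposited table compares gemcitabine with no drug inside shE4F1 cells, so that effect was taken as the table of both changes minus the untreated knockdown table, with an SE that is too large because the untreated shCTRL libraries enter both. By this difference 3 members rose: MYBL1 by 1.61 ± 0.22 (adjusted p = 3.62e-10), MYBL2 by 1.65 ± 0.22 (adjusted p = 4.05e-10) and RBL1 by 0.80 ± 0.22 (adjusted p = 0.0324). Only 1.11% of 21080 genes were called, 0.925% higher and 0.185% lower, and 1.71% of those with a mean of at least 50. The remaining members did not pass, with FOXM1 at 0.63 ± 0.25 (adjusted p = 0.386) and LIN37 at 0.90 ± 0.35 (adjusted p = 0.370). The RBL1 call was lost when the effect was taken through the other tables (0.81, adjusted p = 0.0925).

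Whether the knockdown acted differently with drug was tested on the difference between the effects, under gemcitabine minus untreated. The difference passed for 2 members, both positive, which means a smaller fall with drug: MYBL2 at 0.57 ± 0.19 (adjusted p = 0.0454) and LIN9 at 0.68 ± 0.23 (adjusted p = 0.0485). Over all 20923 genes 5.43% were called, 2.81% positive and 2.63% negative, and 7.68% of those with a mean of at least 50. FOXM1 had a like difference that did not pass, 0.56 ± 0.21 (adjusted p = 0.0927; 95% interval 0.15 to 0.96). For MYBL1, LIN37, RB1 and RBL1 the differences lay between -0.07 and 0.09, with adjusted p of at least 0.904. Both calls sit close to the threshold and ended when differences were centred on their median of 0.08 (adjusted p = 0.114 for MYBL2 and 0.105 for LIN9).

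**Figure D4:**
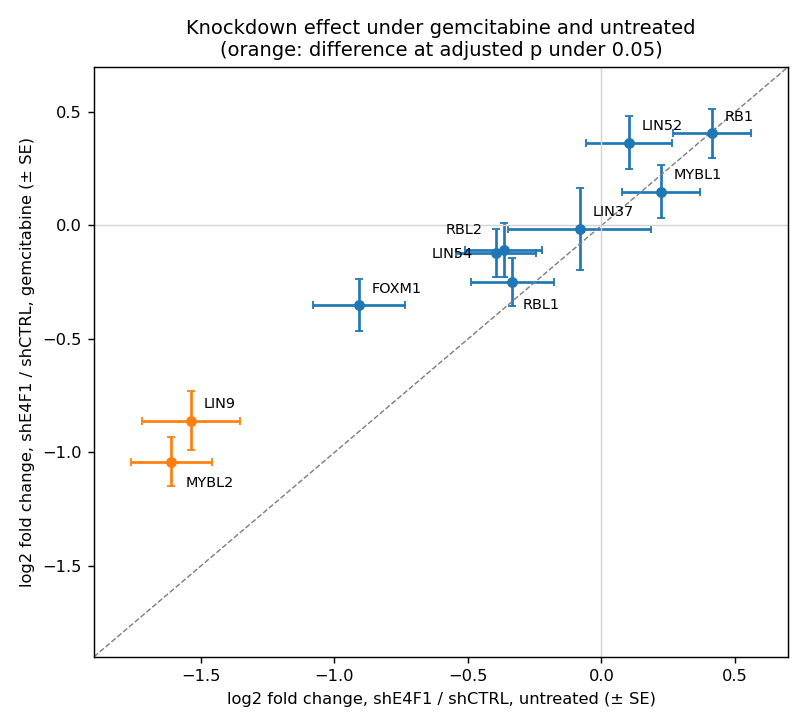
Knockdown effect on each of the 10 genes under gemcitabine (y axis) against untreated (x axis), as log2 fold change ± SE; the dashed line marks equal effects. MYBL2, LIN9 and FOXM1 lie above the line, and the difference passed for MYBL2 and LIN9 (orange).

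Of the 6 listed partner genes of DREAM and B-MYB, E2F5, TFDP1 and TFDP2 were called in at least 1 of the authors' deposited tables, and E2F4, RBBP4 and DYRK1A in none. In the untreated knockdown 1 rose and 1 fell, and under gemcitabine 2 rose and 1 fell, beside 48.7% and 59.3% of genes with a mean of at least 50 called in either direction. TFDP1, the usual dimer partner of the E2Fs, fell by 0.99 ± 0.17 with the knockdown in untreated cells and by 0.91 ± 0.11 under gemcitabine in the authors' deposited tables (adjusted p = 3.49e-08 and 1.59e-14). E2F5, one of the repressor E2Fs of DREAM, rose by 0.46 ± 0.16 and 1.09 ± 0.12 in the same comparisons (adjusted p = 0.0158 and 2.10e-18) and fell by 0.87 ± 0.17 with gemcitabine in shCTRL cells (adjusted p = 2.44e-06) in the authors' deposited tables. The difference between the knockdown effects passed for 1 of the 6 partners, E2F5, at 0.64 ± 0.20 (adjusted p = 0.0348). Among genes with a mean of at least 50, 4.52% were called positive and 3.16% negative. Centring ended the E2F5 call (adjusted p = 0.0860). TFDP2 rose by 0.55 ± 0.13 under gemcitabine with the knockdown (adjusted p = 0.000184) and was at 0.29 ± 0.16 without drug (adjusted p = 0.149) in the authors' deposited tables. E2F4, the main repressor E2F, RBBP4, the histone-binding core subunit, and the kinase gene DYRK1A passed in none of the authors' 4 deposited tables, with log2 values between -0.19 and -0.01.

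Of the kinases, cyclins and inhibitors that set pocket protein phosphorylation, 13 of the 16 listed genes were in the tables. In untreated shE4F1 cells 4 rose and 2 fell, and with drug 5 rose and 5 fell, in the authors' deposited tables (medians 0.02 and -0.04). These counts are near the 48.7% and somewhat above the 59.3% of genes with a mean of at least 50 called in those tables. CDKN1B, the p27 inhibitor, rose by 1.65 ± 0.14 untreated and by 2.08 ± 0.11 under gemcitabine in the authors' deposited tables (adjusted p = 9.96e-32 and 3.33e-78). CDK2, a kinase of the pocket proteins, fell by 1.47 ± 0.18 and 1.61 ± 0.14 in the same tables of the authors (adjusted p = 5.81e-14 and 2.20e-30), and CCND1, cyclin D1, rose by 0.54 ± 0.12 without drug (adjusted p = 6.62e-05) in the authors' deposited table. CCNA2, cyclin A2, fell by 0.71 ± 0.18 without drug (adjusted p = 0.000308) in the authors' deposited table. CCNE1, cyclin E1, fell by 1.28 ± 0.15 with the knockdown under gemcitabine (adjusted p = 2.01e-15) in the authors' deposited table. The p21 gene CDKN1A, an inhibitor that acts upstream of DREAM formation, fell by 1.13 ± 0.13 there (adjusted p = 6.21e-17) and rose by 1.36 ± 0.17 with the drug in shCTRL cells (adjusted p = 7.48e-14) in the authors' deposited tables. In shCTRL cells gemcitabine changed 9 of the 13, with 6 higher and 3 lower (median 0.11), where 36.0% of such genes were called; CCNE2, cyclin E2, rose by 1.89 ± 0.26, CDK6 by 1.04 ± 0.18 and CCNA2 fell by 1.09 ± 0.20 in the authors' deposited table (adjusted p = 1.91e-11, 2.76e-07 and 8.94e-07). With both changes CDKN1B rose by 1.42 ± 0.15, while CCNA2 fell by 1.17 ± 0.20 and CDK2 by 0.83 ± 0.19, in the authors' deposited table (adjusted p = 1.70e-19, 4.22e-08 and 8.63e-05). The difference between the knockdown effects passed for CDK6 at -0.96 ± 0.20, CDKN1A at -0.92 ± 0.22 and CCNE1 at -0.92 ± 0.28 (adjusted p = 0.000313, 0.00144 and 0.0261). Of genes with a mean of at least 50, 3.16% had a negative call and 4.52% a positive one. Within shE4F1 cells the derived drug effect passed for CCNE2, at 1.54 ± 0.38 (adjusted p = 0.00840), beside 1.40% of such genes called higher and 0.309% lower.

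Most early and late target genes fell with the knockdown, and with the drug in shCTRL cells most early targets rose while most late targets did not pass. No test compared the 2 lists. Both were chosen with earlier results of these data known, so their counts are a description only. Of 35 early targets of E2F and DREAM, 29 fell and 1 rose with the knockdown in untreated cells, and 32 fell and 1 rose under gemcitabine, in the authors' deposited tables (medians -0.87 and -0.73). Among all genes with a mean of at least 50, called expressed genes here and including all of these targets, 26.6% were called lower and 22.1% higher untreated, and 29.8% lower and 29.6% higher with drug. With gemcitabine in shCTRL cells 29 of these 35 rose and 0 fell in the authors' deposited table (median 0.99), beside 16.7% of expressed genes higher and 19.3% lower. Of 40 late targets of B-MYB-MuvB and FOXM1, 32 fell and 0 rose untreated, and 28 fell and 1 rose with drug, in the authors' deposited tables of the knockdown (medians -0.67 and -0.49). With gemcitabine in shCTRL cells 13 of the 40 late targets fell, 2 rose and 25 did not pass in the authors' deposited table (median -0.25), and 14 of the 40 lay above 0. MYBL2 thus moved in the direction of the early list's median in all 3 tables, while LIN9 and FOXM1 fell with the knockdown and did not pass with the drug.

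Named by the size of their scores, the early genes changed most in untreated shE4F1 cells were the licensing factor gene CDC6 at -1.63 ± 0.17, the clamp loader gene RFC4 at -1.28 ± 0.15 and the polymerase gene POLD1 at -1.35 ± 0.17 in the authors' deposited table. The phosphatase gene CDC25A went the other way, at 0.71 ± 0.15 untreated and 0.71 ± 0.13 under gemcitabine, in the authors' deposited tables. CDC6 was also first in the gemcitabine table at -1.71 ± 0.12, before the helicase genes MCM7 at -1.37 ± 0.12 and MCM2 at -1.22 ± 0.11, in the authors' deposited table. Gemcitabine raised CDC6 by 1.89 ± 0.14 and the activator E2F genes E2F2 by 1.77 ± 0.19 and E2F1 by 1.31 ± 0.14 in shCTRL cells, by the authors' deposited table. With both changes 9 of the 35 rose and 2 fell, with a median of 0.15, beside 19.0% of expressed genes higher and 23.1% lower; CDC25A rose by 2.22 ± 0.15, E2F1 by 1.05 ± 0.16 and E2F8 by 1.19 ± 0.20, and POLD1 fell by 0.60 ± 0.18, in the authors' deposited table. Within shE4F1 cells the derived drug effect was called up for 25 of the 35 and down for 0 (median 1.17), beside 1.40% and 0.309% of expressed genes, led by E2F1 at 1.90 ± 0.23, CDC6 at 1.81 ± 0.22 and E2F2 at 2.12 ± 0.28. The knockdown effect differed between conditions for 5 early genes, all positive, beside 4.52% of expressed genes positive and 3.16% negative, among them CDC45 at 0.94 ± 0.22, RFC4 at 0.79 ± 0.20 and CDT1 at 1.04 ± 0.27.

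In the late list the centriole kinase gene PLK4 at -1.27 ± 0.15, BIRC5, which encodes survivin, at -1.20 ± 0.16 and CENPA, the histone H3 variant of centromeres, at -1.23 ± 0.18 led the falls in untreated shE4F1 cells in the authors' deposited table. Under gemcitabine the kinesin gene KIF2C fell by 1.05 ± 0.13, the cohesin protector gene SGO1 by 0.94 ± 0.12 and BIRC5 by 0.75 ± 0.11, and KIF20A, another kinesin, rose by 1.02 ± 0.17, all in the authors' deposited table. The drug in shCTRL cells lowered the mitotic kinase gene PLK1 by 1.47 ± 0.16, KIF20A by 1.82 ± 0.26 and CCNF, cyclin F, by 1.07 ± 0.16, and raised SGO1 by 0.94 ± 0.18, in the authors' deposited table. With both changes 30 of the 40 late genes fell and 0 rose (median -0.71), CCNF by 2.00 ± 0.18, PLK1 by 1.45 ± 0.16 and the cyclin B1 gene CCNB1 by 1.66 ± 0.20 in the authors' deposited table. Of expressed genes, 23.1% were called lower and 19.0% higher there. The derived drug effect in shE4F1 cells was called for 5 late genes, 4 lower and 1 higher, with CCNF at -0.97 ± 0.24, KIF20A at -1.33 ± 0.35 and SGO1 at 1.05 ± 0.27. By that effect 0.309% of expressed genes were called lower and 1.40% higher. The knockdown effect differed between conditions for 1 late gene of the 40, PLK1, at 0.71 ± 0.20 (adjusted p = 0.00994). Among expressed genes 4.52% were called positive and 3.16% negative, so the late list was not called more often than those genes.

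**Figure D5:**
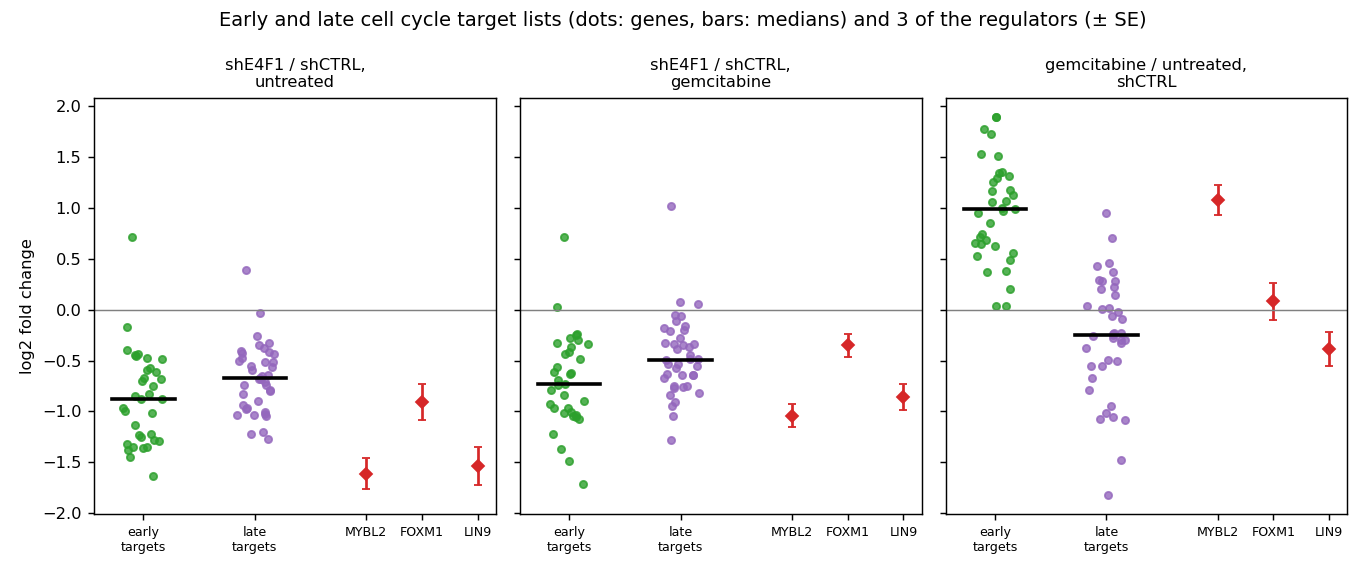
Log2 fold changes of the 35 early and 40 late target genes (dots, with medians as bars) beside MYBL2, FOXM1 and LIN9 (diamonds ± SE) in 3 deposited tables (panels). Both lists lie mostly below 0 in the knockdown panels, and in the gemcitabine panel the early median is 0.99 and the late median -0.25.

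The 2 target lists held different promoter words. Both lists were drawn from textbook knowledge of targets of E2F, DREAM, B-MYB-MuvB and FOXM1, with earlier results of these data known. A difference in the words of these regulators may follow from that choice, so the shares are a description only. TTTGAA lay in 29 of 44 late windows (65.9%) and in 1 of 39 early windows (2.56%), against 15.2% of all windows. An E2F word lay in 26 of 39 early windows (66.7%) and in 13 of 44 late windows (29.5%), against 12.97% of all. The CCAAT box was in 34 late windows (77.3%) and 24 early windows (61.5%), against 34.6% of all, and the MYB word AACGG in 20 late (45.5%) and 10 early windows (25.6%), against 19.7% of all. The forkhead word TAAACA was in 4 windows of each list, 9.09% of late and 10.3% of early, against 12.3% of all. GGCGGGA was in 11 late (25%) and 18 early windows (46.2%), against 15.4% of all. TGACGT, the shared core of E4F1 and ATF sites, was in 9 late (20.5%), 6 early (15.4%) and 2 of the 13 member windows (LIN37 and LIN52), against 7.98% of all. The following stretches of the targets named above show the CHR word of the late genes PLK1 and CCNF, the E2F-type word GGCGGGA of CDC6 and the E2F words of E2F1, in capitals, on the gene's strand of GRCh38.p14.
PLK1, chr16:23678844-23678873: cgttcccagcgccgcgTTTGAAttcgggga
CCNF, chr16:2429347-2429376: ggagggccgggtgcgTTTGAAaactggggt
CDC6, chr17:40287844-40287873: gccgggctttGGCGGGAggtgggaacgctg
E2F1, chr20:33686394-33686423: ctttcGCGGCAAaaaggatTTGGCGCgtaa
These 4 genes were named for the size of their drug response, so their stretches show the words and bear on no link between word and direction. Among the members with a word of the E2F type, MYBL2, RBL1 and LIN37 rose with the drug in shCTRL cells and LIN9, LIN52 and LIN54 did not pass. Among those with the CHR word, LIN37 rose, RBL2 fell, and LIN9 and LIN54 did not pass.

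The genes most like 4 of the members were taken over 3 tables (both knockdown tables and gemcitabine in shCTRL cells) by the largest absolute difference in log2 fold change, among 12453 genes with a mean of at least 50 in each. Nearest to MYBL2 were HAUS5, TRAIP and XRCC3, within 0.15, 0.16 and 0.17. Nearest to FOXM1 were ARRDC1-AS1, KIF22 and TCOF1, within 0.08 each. For RBL1 they were RP11-111M22.3, LINC00623 and ARHGAP33, within 0.07, 0.09 and 0.09, and for RBL2 they were ARPC2, LOXL1 and CEPT1, within 0.02, 0.04 and 0.04. The tables share libraries, so this likeness over 3 values is a description.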

How the data were processed

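Libraries of mRNA came from a stranded kit and were sequenced with 50 bp single reads, per the labels' protocols and the series' design text. Tools used by the authors, as listed without roles in the submitters' processing notes, were R 3.4.0, DESeq2 1.14.1, HTSeq 0.9.0, TopHat2 2.1.1, Bowtie2 2.2.9, FastQC and bcl2fastq, with build GRCh38.p7. Annotation release, strand setting, filters and design formula: not given in the sources used here. For each gene the 4 tables the authors deposited give a mean normalized count, a log2 fold change with SE, a Wald score, a p-value and an adjusted p-value, which is the one printed for deposited comparisons. A count table has 12 columns whose names match no label, and none was used.

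The drug effect in shE4F1 cells and the difference between knockdown effects were formed from pairs of tables in Python 3.11.15 (scipy 1.17.1, pandas 2.3.3, numpy 2.4.6). Both used summed variances, a two-sided normal test and Benjamini-Hochberg adjustment over all genes. Only the difference between knockdown effects was tried on simulated data. Those data were drawn with the deposited SEs that the test itself uses, so the trial could not check the SEs. Intervals are 95% normal intervals. Positions and exon lengths are from GENCODE on GRCh38. Alternatives were an adjusted p threshold of 0.01, a minimum mean of 50, centring on the median of genes above that minimum, and other routes through the tables. Members and lists were chosen with earlier results of these data known. Named were all members, E4F1, the DREAM partners, the 3 called genes of each other list with the largest absolute score plus 1 in the opposite direction, and the 3 nearest genes of MYBL2, FOXM1, RBL1 and RBL2.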

Additional observations from a re-analysis of the deposited data

Results flagged for a closer look

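For MYBL2 the knockdown effect differed between conditions by a direct test of the difference, 0.57 on the log2 scale (adjusted p = 0.0454), being -1.04 under gemcitabine and -1.61 untreated in the authors' deposited tables. LIN9 was picked out by the same test at 0.68 (adjusted p = 0.0485), with -0.86 under gemcitabine and -1.54 untreated in the authors' deposited tables. The centring that ended both calls is given with the result.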

How the results depend on the processing

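No paired analysis was possible because the deposited tables carry no replicate columns, and for the same reason no replicate was left out. The untreated knockdown called 3 members (0 higher) at an adjusted p threshold of 0.01. The knockdown under gemcitabine, taken from the other tables, called 2 members; its fold changes moved by at most 0.03 (log2), but the SE is larger by construction, and the calls of FOXM1 (adjusted p = 0.396), LIN52 (0.346), RB1 (0.273) and E4F1 (0.0772) ended. For the difference between knockdown effects, 0 members were called at the threshold of 0.01, after centring, or through the other tables. The share of all genes called under each alternative was not counted, so these counts have no background beside them.

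Of the lists, with alternatives chosen after seeing the data, the DREAM partners gave 1 call in the untreated knockdown at 0.01, and 0 for the difference at 0.01, after centring and through the other tables. Through the other tables the knockdown under gemcitabine called 5 pocket protein regulators, 11 late and 18 early targets, the drug in shE4F1 cells 1 late target (0 at the threshold of 0.01), and the difference 0 regulators, 0 late and 0 early targets. The difference called 2 late targets over genes whose mean was at least 50, and 3 early targets at 0.01 and 3 after centring. Whether the lists lost more or fewer calls than other genes under these alternatives was not tested. Signs turned only in values near 0 that were not called: for the difference, after centring, LIN37 (-0.013), TFDP1 (-0.0026) and RBBP4 (-0.045), and through the other tables CDC25A (0.0024) and MCM7 (0.0047); for the drug in shCTRL cells after centring DYRK1A (0.014). Of 231 values of the members and E4F1 under alternatives, called or not, 209 kept direction and call. Calls were lost in 18 values and gained in 3, and 1 value turned its sign. Of the losses, 7 came at the threshold of 0.01, 4 after centring and 7 through the other tables. Values not called at first could not change at the threshold of 0.01, so the total does not measure how stable the calls were.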
